A study of Mus musculus with 6 samples.

Results

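Chemokine ligand genes were followed in gonadal white adipose tissue (GWAT) of obese mice with and without Fsp27. The members were all genes with a probeset of 1 gene symbol whose symbol starts with *Ccl*, *Cxcl*, *Cx3cl* or *Xcl* and a number, together with *Pf4* and *Ppbp*, which are CXC chemokines under older names, and where several probesets stood for a gene the brightest was taken. This gave 36 of the 19937 genes measured, 19 with CC names, 15 CXC chemokines, *Cx3cl1* and *Xcl1*. GWAT came from male mice aged 4 months on normal chow, with 3 arrays of *ob/ob* mice, which lack leptin, and 3 arrays of *ob/ob/Fsp27-/-* mice, which lack both leptin and Fsp27 in every cell of the body. Both groups were on a C57BL/6J background per the methods and share the leptin defect, and no lean or leptin-sufficient mice were compared here. Per the study's methods the RNA on an array was a pool from several mice, the labels do not mention pooling, and the spread between single mice is therefore not known. Arrays are called 1, 2 and 3 within a genotype, and values are always given in that order.

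Values are Robust Multi-array Average (RMA) values on the log2 scale, on which a difference of 1 is a doubling. They compare a gene between arrays and do not rank genes by abundance. Calls of higher or lower always describe *ob/ob/Fsp27-/-* relative to *ob/ob* mice and needed an adjusted p under 0.05 (limma, Benjamini-Hochberg) together with a log2 difference, up or down, of 0.5 or more. SE stands for standard error. *Cidec*, which encodes Fsp27, read 11.49, 11.78 and 11.98 in *ob/ob* and 11.34, 11.51 and 11.53 in *ob/ob/Fsp27-/-* mice and was not called (log2 fold change −0.29, adjusted p = 0.157). Its only probeset has no stated place within the gene, so it does not check the labels. The adipocyte markers *Adipoq*, *Fabp4* and *Plin1*, which check the tissue label, read between 10.59 and 12.72 on the 6 arrays. Array medians lay between 6.02 and 6.10. Correlations over probesets were 0.988 or higher within a genotype and at most 0.965 between genotypes.

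Chemokines are small secreted proteins that steer leukocytes by binding G protein-coupled receptors on their surface. CC ligands such as Ccl2 draw monocytes from blood into obese fat, CXC ligands draw neutrophils or, when induced by interferon, activated T cells, and a homeostatic group places lymphocytes and dendritic cells within tissues. Many are made by macrophages, and most of their receptors respond to several ligands.

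Several ligands of monocytes and macrophages, such as *Ccl2* and *Ccl3*, were lower when Fsp27 was missing, whereas ligands of neutrophils, of the interferon response and of lymphoid tissue mostly were not. Of the 36 ligand genes, 10 were lower (10.8% of all genes were), 1 was higher (9.58% of all genes were) and 25 were not called, so that 11 were called in all (20.4% of all genes were). The lower genes were *Ccl3*, *Ccl9*, *Ccl2*, *Ccl6*, *Ccl7*, *Pf4*, *Cxcl16*, *Cxcl14*, *Ccl11* and *Cxcl2*, and the higher gene was *Cxcl9*. For 9 of the 10 lower genes the fall was at least 1 on the log2 scale. The median log2 fold change of the 36 genes was 0.07, beside 0.06 for all genes. In *ob/ob/Fsp27-/-* mice all 3 arrays lay below all 3 *ob/ob* arrays for 11 ligand genes (20.7% of all genes) and above them for 7 (25.3% of all genes), and for the other 18 the genotypes overlapped. Brightness parted the members. Of the 17 ligand genes that lay above the array median on all 6 arrays, 8 were lower and 1 was higher, with a median log2 fold change of −0.81, while 16.0% of all such genes were lower and 15.4% higher. Of the 13 that lay below it on all 6 arrays, only *Cxcl2* was called, and for these the signal over background sets a limit to what could be detected. A lower value in whole tissue may come from fewer cells of a type or from less RNA per cell, and these cannot be told apart here.

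**Figure D1:**
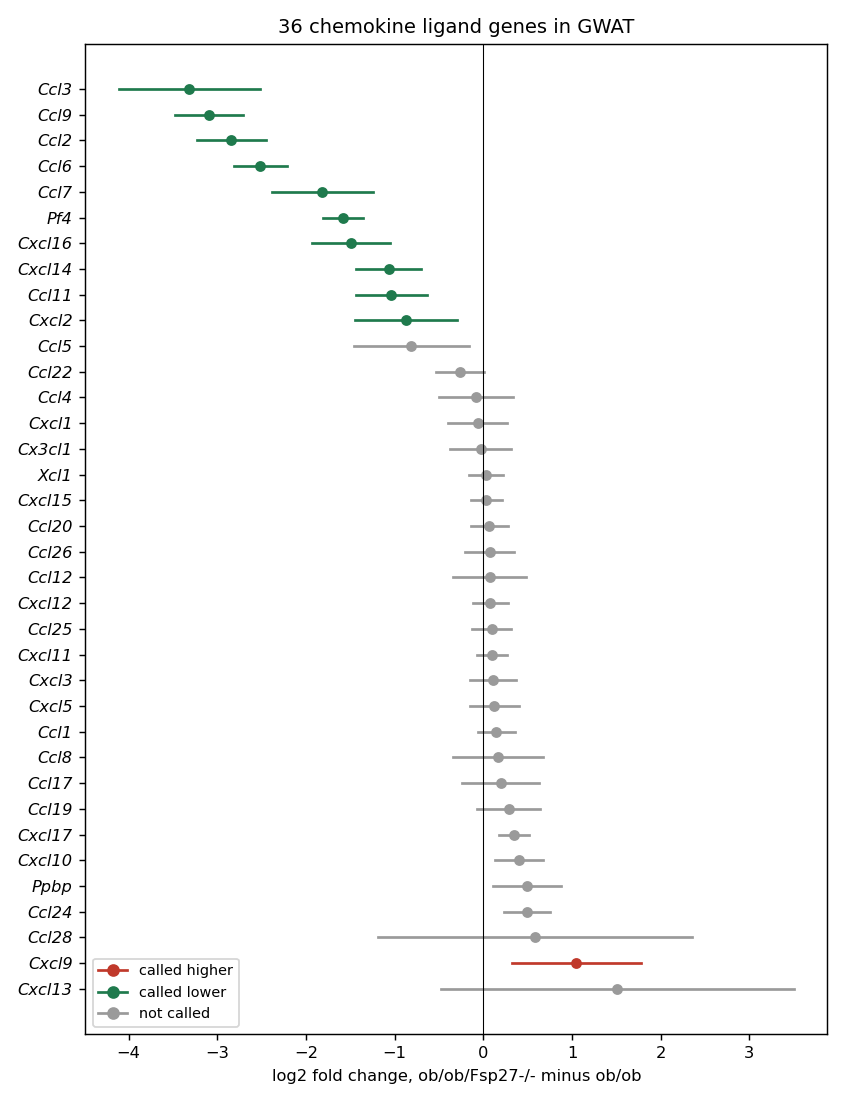
Log2 fold change (*ob/ob/Fsp27-/-* minus *ob/ob*, horizontal axis) of the 36 chemokine ligand genes in GWAT, each with its 95% interval from limma, sorted by value, green where called lower, red where called higher and grey where not called. The 10 lower genes reach from −3.32 for *Ccl3* to −0.88 for *Cxcl2*, and the intervals of *Ccl28* and *Cxcl13* are the widest.

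Among the inflammatory CC ligands *Ccl3*, *Ccl4*, *Ccl5*, *Ccl6* and *Ccl9*, which draw monocytes, macrophages and effector T cells, 3 of 5 genes were lower. *Ccl3*, which encodes the macrophage inflammatory protein MIP-1alpha, read 10.24, 9.52 and 8.95 on the *ob/ob* arrays and 5.81, 6.58 and 6.37 on the *ob/ob/Fsp27-/-* arrays. Every *ob/ob* array lay more than 2 units above every *ob/ob/Fsp27-/-* array, although the *ob/ob* arrays themselves spread over more than 1 unit. The log2 fold change was −3.32 (SE 0.34, adjusted p = 0.000528), which is 9.96-fold. *Ccl9*, a rodent ligand of Ccr1 made by macrophages and osteoclasts, read 10.92, 11.08 and 10.69 in *ob/ob* and 7.52, 7.83 and 8.07 in *ob/ob/Fsp27-/-* mice (log2 fold change −3.09, SE 0.16, adjusted p = 4.57e-05). *Ccl6*, the neighbouring rodent gene of the same kind, read 12.09, 12.09 and 11.75 in *ob/ob* and 9.29, 9.51 and 9.58 in *ob/ob/Fsp27-/-* mice (log2 fold change −2.52, SE 0.13, adjusted p = 4.08e-05). The replicates of these genes were close, and the genotypes were far apart. *Ccl4*, which encodes MIP-1beta, was not called. It read 5.69, 5.28 and 5.09 in *ob/ob* and 5.30, 5.48 and 5.04 in *ob/ob/Fsp27-/-* mice, below the median of every array, with a log2 fold change of −0.08 (95% interval −0.50 to 0.34).

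*Ccl5*, known as RANTES and made by T cells, NK cells and macrophages, was the fifth of these ligands. It read 8.90, 8.72 and 7.79 in *ob/ob* and 7.51, 7.84 and 7.63 in *ob/ob/Fsp27-/-* mice. *ob/ob* arrays 1 and 2 stood above all other arrays, while *ob/ob* array 3 lay within the range of the *ob/ob/Fsp27-/-* arrays. The difference was not called (log2 fold change −0.81, SE 0.27, adjusted p = 0.0658), and without *ob/ob* array 3 it was (−1.15, adjusted p = 0.00155). On all 6 arrays it was called with low values filtered at the median (limma, adjusted p = 0.0397) and with array weights. A pair of lymphocyte markers, chosen after their values were seen, likewise read lower on *ob/ob* array 3 than on the other *ob/ob* arrays. *Nkg7*, a protein of cytotoxic granules, read 7.49, 7.54 and 6.47 in *ob/ob* and 6.16, 6.35 and 6.47 in *ob/ob/Fsp27-/-* mice, and *Cd3g*, a chain of the T-cell receptor complex, 6.86, 6.44 and 5.45 against 5.37, 5.66 and 5.38. Neither was called in the main fit of 6 arrays. With low values filtered at the 30th percentile or the median, or with array weights, *Nkg7* was called lower on them. *Cd3e*, a defining T-cell marker, was not called (log2 fold change −0.25, adjusted p = 0.244). *Cd4*, chosen after its value was seen, had the opposite sign and was not called. Its log2 fold change lay between 0.13 and 0.33 when single arrays were left out. Of 10 T-cell markers 1 was lower, and 3 were without *ob/ob* array 3. Of 8 NK-cell markers none was lower by limma (2 had an unadjusted p under 0.05), and 1 was without that array. The median log2 fold change was −0.19 over the T-cell markers and −0.13 over the NK-cell markers. The mean of the T-cell markers ranged from 5.69 to 6.24 over the *ob/ob* arrays and from 5.55 to 5.80 over the *ob/ob/Fsp27-/-* arrays. Their part in the values of *Ccl5* was not tested.

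RefSeq gives windows from 250 bases before to 50 bases after the start of 25 of the 36 ligand genes (build GRCm38.p6). Those of *Ccl3*, *Ccl9* and *Ccl6* are printed because these neighbouring genes had 3 of the 4 deepest falls. Capitals mark matches, on either strand, to any of 4 motifs known from inflammatory genes, an ISRE-like motif of interferon responses (GAAANNGAA), a GAS-like motif of STAT factors (TTCNNNGAA), a kappa B-like motif of NF-kappa B (GGNNTTTCC) and the AP-1 motif (TGANTCA).
Ccl3, chr11:83649329-83649628, minus strand: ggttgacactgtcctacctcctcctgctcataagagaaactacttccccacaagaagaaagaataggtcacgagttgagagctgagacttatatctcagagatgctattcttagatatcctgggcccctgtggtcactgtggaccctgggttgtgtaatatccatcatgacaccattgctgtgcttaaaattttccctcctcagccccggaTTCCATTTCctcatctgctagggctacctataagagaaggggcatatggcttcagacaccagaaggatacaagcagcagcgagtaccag
Ccl9, chr11:83578587-83578886, minus strand: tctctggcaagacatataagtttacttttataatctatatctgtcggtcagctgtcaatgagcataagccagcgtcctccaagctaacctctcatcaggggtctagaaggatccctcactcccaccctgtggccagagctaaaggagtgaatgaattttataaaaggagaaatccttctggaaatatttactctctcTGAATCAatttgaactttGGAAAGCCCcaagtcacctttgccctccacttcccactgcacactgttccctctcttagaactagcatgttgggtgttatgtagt
Ccl6, chr11:83593038-83593337, minus strand: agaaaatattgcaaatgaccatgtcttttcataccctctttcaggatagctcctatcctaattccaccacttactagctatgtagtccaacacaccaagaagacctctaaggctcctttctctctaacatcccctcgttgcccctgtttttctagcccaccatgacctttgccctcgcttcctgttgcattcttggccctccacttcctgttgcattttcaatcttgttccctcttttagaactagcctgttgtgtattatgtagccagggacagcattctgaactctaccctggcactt
The windows shared no motif. *Ccl3* held an ISRE-like match on the opposite strand, *Ccl9* an AP-1 and a kappa B-like match, and *Ccl6* none of the 4. Of the 25 genes, 7 held kappa B-like letters (28%, beside 5.82% of all 32851 windows) and 6 held ISRE-like letters (24%, beside 8.56%). AP-1 letters were held by 5 (20%, beside 7.81%) and GAS-like letters by 2 (8.0%, beside 8.30%). The shares of the ligands count genes and the others count windows, of which a gene can have several. The kappa B-like windows were those of *Ccl9* and *Cxcl2*, which were lower, of *Cxcl9*, which was higher, and of *Ccl20*, *Cxcl1*, *Cxcl3* and *Cxcl10*, which were not called. A match is a run of letters and was not shown to be bound.

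Of 4 genes grouped here as ligands of Ccr2, the receptor of inflammatory monocytes, 2 were lower and 2 were not called. *Ccl2*, which encodes the monocyte chemoattractant MCP1, read 9.95, 9.59 and 9.52 in *ob/ob* and 6.86, 7.10 and 6.58 in *ob/ob/Fsp27-/-* mice. The genotypes did not overlap, and the log2 fold change was −2.84 (SE 0.16, adjusted p = 7.11e-05), which is 7.18-fold. *Ccl7*, which encodes MCP3, read 8.83, 7.999 and 8.56 in *ob/ob* and 6.46, 7.03 and 6.45 in *ob/ob/Fsp27-/-* mice. It too was lower in every *ob/ob/Fsp27-/-* array, with a log2 fold change of −1.82 (SE 0.24, adjusted p = 0.00171). *Ccl8*, which encodes MCP2, read 7.40, 6.78 and 7.35 in *ob/ob* and 7.46, 7.59 and 6.98 in *ob/ob/Fsp27-/-* mice, above the array median throughout, and was not called (log2 fold change 0.17, 95% interval −0.34 to 0.67). *Ccl12*, which encodes the mouse protein MCP5, read 4.17, 4.08 and 4.53 against 4.04, 4.61 and 4.34. It lay below the array median on every array, where a fall may go undetected. The interval for *Ccl8*, which measures the spread between these arrays and rests on 1 probeset, did not reach the log2 fold change of *Ccl2* or *Ccl7*.

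Ligands of Ccr3, which draw eosinophils, did not move together. *Ccl11*, which encodes eotaxin and is made by stromal cells, read 9.76, 9.26 and 9.56 in *ob/ob* and 8.23, 8.52 and 8.73 in *ob/ob/Fsp27-/-* mice (log2 fold change −1.04, SE 0.17, adjusted p = 0.00385). *Ccl24*, eotaxin-2, had the opposite sign. It read 5.77, 5.54 and 5.69 in *ob/ob* and 6.003, 6.32 and 6.16 in *ob/ob/Fsp27-/-* mice, with all *ob/ob/Fsp27-/-* arrays above all *ob/ob* arrays. Its log2 fold change of 0.49 (SE 0.11, adjusted p = 0.0137) fell just short of the fold threshold, and leaving out *ob/ob* array 1 (0.55), *ob/ob* array 3 (0.51) or else *ob/ob/Fsp27-/-* array 1 (0.57) brought a call of higher. *Ccl26* was not called and lay below the array median on all 6 arrays. Of 6 eosinophil markers only *Ccr3* was lower, and the mean of the 6 lay between 5.03 and 5.17 over the *ob/ob* arrays and between 4.83 and 4.93 over the *ob/ob/Fsp27-/-* arrays. Of 9 stromal progenitor markers 4 were lower, and the mean of the 9 lay between 9.77 and 9.85 over the *ob/ob* arrays and between 8.90 and 9.35 over the *ob/ob/Fsp27-/-* arrays. The part of either cell type in these values was not tested.

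Ligands of Ccr4 and Ccr8, which draw regulatory and type 2 helper T cells, were not called by limma, and none of the 3 had an unadjusted p under 0.05. *Ccl22*, a product of dendritic cells and macrophages, had the lowest value of them (log2 fold change −0.26, adjusted p = 0.141), and *Ccl1* and *Ccl17* read 0.15 and 0.19. All 3 genes lay below the array median on all 6 arrays. *Xcl1*, made by NK and CD8 T cells for Xcr1-bearing dendritic cells, was at 0.03 (95% interval −0.16 to 0.22).

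*Pf4*, platelet factor 4, is stored in platelets and also made by some tissue macrophages. It read 9.84, 9.79 and 9.93 in *ob/ob* and 8.24, 8.42 and 8.14 in *ob/ob/Fsp27-/-* mice, the closest replicates of the called ligand genes in *ob/ob* mice. The log2 fold change was −1.58 (SE 0.097, adjusted p = 8.56e-05), or 3.0-fold. *Ppbp*, the other platelet chemokine, had the opposite sign, with a log2 fold change of 0.49 (SE 0.16, adjusted p = 0.0580). It was not called, although it was without *ob/ob/Fsp27-/-* array 1 (0.66, adjusted p = 0.0102). *Itga2b*, which defines platelets and megakaryocytes, read 6.12, 6.16 and 6.08 against 6.17, 6.17 and 6.01. Its log2 fold change was −0.01. Of 5 platelet markers 1 was lower, the integrin gene *Itgb3* that macrophages also use (−0.69, adjusted p = 0.0284), and it was not called without *ob/ob* array 1 or 3 or without *ob/ob/Fsp27-/-* array 1 or 3. The mean of the 5 markers ranged from 6.31 to 6.53 over the *ob/ob* arrays and from 6.27 to 6.49 over the *ob/ob/Fsp27-/-* arrays. The part of platelets in the value of *Pf4* was not tested.

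**Figure D2:**
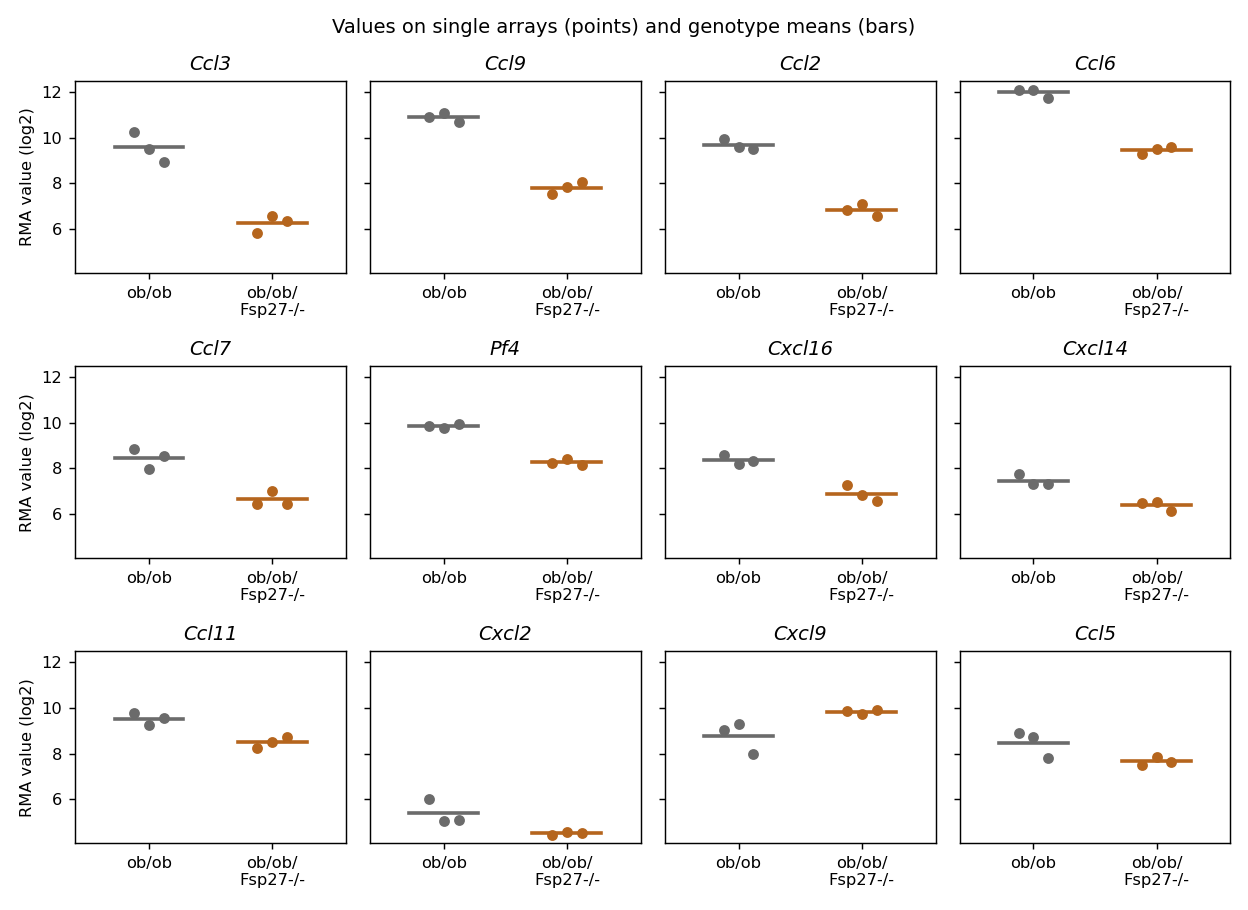
RMA values (log2, vertical axis) of the 11 called chemokine ligand genes and of *Ccl5* on single arrays, shown as points (*ob/ob* in grey, *ob/ob/Fsp27-/-* in brown) with a bar at their mean. The genotypes do not overlap for the 11 called genes, and for *Ccl5* and *Cxcl9* *ob/ob* array 3 lies below the other 2.

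Neutrophil ligands, which act on Cxcr2, were mostly not called. *Cxcl2*, or MIP-2, was the only 1 of 6, *Ppbp* included, that was lower. It read 6.01, 5.06 and 5.09 in *ob/ob* and 4.46, 4.56 and 4.51 in *ob/ob/Fsp27-/-* mice, so *ob/ob* array 1 stood apart, and all 6 values lay below the median of their arrays. The log2 fold change was −0.88 (SE 0.24, adjusted p = 0.0340), and the gene was not called without *ob/ob/Fsp27-/-* array 1 (adjusted p = 0.0809), 2 (0.0903) or 3 (0.0837). *Cxcl1*, the neutrophil chemokine KC, had a log2 fold change of −0.06 (95% interval −0.40 to 0.27). *Cxcl3*, *Cxcl5* and *Cxcl15* lay below the array median on all arrays, with log2 fold changes between 0.03 and 0.13. Of 10 neutrophil markers 8 lay below the array median on all arrays. *S100a8* was the only 1 called, as higher (0.83, adjusted p = 0.0181), and it was not called without *ob/ob/Fsp27-/-* array 2 or 3.

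Of the 3 ligands of Cxcr3, which draw activated T cells and NK cells and are induced by interferon, 1 was called higher. All 3 lay higher on every *ob/ob/Fsp27-/-* array than on any *ob/ob* array, as did 25.3% of all genes. *Cxcl9*, or MIG, read 9.04, 9.31 and 7.997 in *ob/ob* and 9.85, 9.75 and 9.89 in *ob/ob/Fsp27-/-* mice. *ob/ob* array 3 was more than 1 unit below the other *ob/ob* arrays, and the *ob/ob/Fsp27-/-* arrays were close together. The log2 fold change was 1.05 (SE 0.31, adjusted p = 0.0408). The call rests on few arrays, since it was lost without *ob/ob* array 1 (adjusted p = 0.0540) or without *ob/ob/Fsp27-/-* array 1, 2 or 3 (0.0885, 0.101 and 0.102), as it was with array weights (0.81, adjusted p = 0.0839) and over all probesets (adjusted p = 0.0621), and the log2 fold change was 0.66 without *ob/ob* array 3, where it held. *Cxcl10*, or IP-10, read 6.29, 6.33 and 5.97 in *ob/ob* and 6.66, 6.62 and 6.52 in *ob/ob/Fsp27-/-* mice. It passed the adjusted p but not the fold threshold (log2 fold change 0.40, SE 0.12, adjusted p = 0.0365). *Cxcl11*, which RefSeq lists as a transcribed pseudogene in the C57BL/6J reference strain, lay below the array median and differed by 0.10.

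The windows of *Cxcl9* and *Cxcl10*, neighbours on chromosome 5, are printed because both hold 3 of the 4 motifs, with the same marking.
Cxcl9, chr5:92328030-92328329, minus strand: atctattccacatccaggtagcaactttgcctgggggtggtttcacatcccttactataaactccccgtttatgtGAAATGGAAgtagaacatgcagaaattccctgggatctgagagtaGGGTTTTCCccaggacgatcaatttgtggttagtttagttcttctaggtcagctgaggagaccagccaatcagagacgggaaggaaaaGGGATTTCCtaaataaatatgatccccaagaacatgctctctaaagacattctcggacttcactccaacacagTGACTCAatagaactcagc
Cxcl10, chr5:92348840-92349139, minus strand: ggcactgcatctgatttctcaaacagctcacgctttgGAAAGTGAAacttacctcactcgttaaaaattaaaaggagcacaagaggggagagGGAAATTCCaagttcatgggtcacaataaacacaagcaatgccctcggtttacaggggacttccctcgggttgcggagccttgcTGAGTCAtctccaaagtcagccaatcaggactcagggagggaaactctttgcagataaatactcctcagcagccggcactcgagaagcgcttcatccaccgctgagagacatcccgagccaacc
Each held ISRE-like, kappa B-like and AP-1 letters, and *Cxcl9* held kappa B-like letters in 2 places. No other ligand gene with a window held all 3. Both motif families nonetheless occurred on genes that were lower, *Ccl3* and *Cxcl14* for the ISRE-like letters and *Ccl9* and *Cxcl2* for the kappa B-like ones. *Ifng*, the interferon that induces *Cxcl9*, read 5.09, 5.11 and 5.18 against 5.18, 5.40 and 5.05, below the array medians. Of 16 interferon response genes 2 were higher and 3 lower. The higher ones were *Cd274*, which encodes PD-L1 (log2 fold change 1.75, adjusted p = 0.000176), and the antiviral gene *Rsad2* (0.84, adjusted p = 0.0162), which was not called without *ob/ob/Fsp27-/-* array 2. The lower ones were *Ciita*, the master regulator of MHC class II genes (−0.73), and *Irf9* and *Stat2* (−0.62 and −0.54), which encode parts of the interferon-activated factor ISGF3, and *Stat2*, chosen after its value was seen, was not called without *ob/ob* array 1. With arrays centred on housekeeping genes neither *Irf9* nor *Stat2* was called. *Rsad2* read 7.77, 7.64 and 6.99 in *ob/ob* mice and shared with *Cxcl9* the low value on array 3. The median log2 fold change of the interferon list was −0.32, and its part in the value of *Cxcl9* was not tested. Of 14 NF-kappa B target genes 7 were lower, led by *Rel* (−1.13), *Vcam1* (−0.97) and *Icam1* (−0.78), and 1 was higher, *Sod2* (0.51, chosen after its value was seen), which was not called without *ob/ob* array 1 or without *ob/ob/Fsp27-/-* array 2 or 3.

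Of the membrane-bound ligands, which act as adhesion molecules until they are shed, 1 of 2 was lower. *Cxcl16*, the scavenger receptor SR-PSOX and ligand of Cxcr6, read 8.60, 8.22 and 8.34 in *ob/ob* and 7.27, 6.85 and 6.57 in *ob/ob/Fsp27-/-* mice (log2 fold change −1.49, SE 0.19, adjusted p = 0.00131). *Cx3cl1*, or fractalkine, read 6.73, 6.36 and 6.42 against 6.72, 6.36 and 6.33 and differed by −0.03 (95% interval −0.37 to 0.31). *Adam10* and *Adam17*, which encode the proteases that shed both, were lower (log2 fold changes −0.91 and −1.04, adjusted p = 0.00150 and 0.000463, *Adam10* being chosen after its value was seen).

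Homeostatic ligands were mostly not called. *Cxcl12*, or SDF-1, made by stromal and endothelial cells, read 8.38, 8.55 and 8.57 in *ob/ob* and 8.62, 8.55 and 8.56 in *ob/ob/Fsp27-/-* mice, and the 95% interval of its log2 fold change of 0.08 ran from −0.12 to 0.27. *Cxcl14*, a CXC ligand of epithelium and fat, was lower, with 7.76, 7.31 and 7.33 against 6.51, 6.52 and 6.16 (log2 fold change −1.07, SE 0.16, adjusted p = 0.00248). *Cxcl17*, a mucosal chemokine, differed by 0.35 (SE 0.072, adjusted p = 0.0105), under the fold threshold. *Ccl19*, a ligand of Ccr7, read 8.97, 8.70 and 8.65 against 9.05, 9.32 and 8.80 on its brightest probeset and was not called (log2 fold change 0.29, adjusted p = 0.216). Its other 3 probesets disagreed, with differences from −0.55 to 0.47, and the lowest of them was called lower, but not without *ob/ob* array 2 or 3 or without *ob/ob/Fsp27-/-* array 2 or 3. The ligands of the same receptor encoded by the *Ccl21* copies share 1 probeset and were not counted among the 36. That probeset read 7.28, 7.19 and 6.23 in *ob/ob* and 9.19, 8.19 and 8.06 in *ob/ob/Fsp27-/-* mice and was called higher (log2 fold change 1.58, SE 0.37, adjusted p = 0.0180), also without any single array. Which copy gave the signal cannot be read from it. The genes *Ccl27a* and *Ccl27b*, skin chemokines, share 2 probesets with each other and were likewise not counted. The brighter of these read 7.22, 7.21 and 7.45 in *ob/ob* and 7.18, 6.90 and 6.81 in *ob/ob/Fsp27-/-* mice, so that the genotypes were apart, and was not called (log2 fold change −0.33, adjusted p = 0.0898). The other lay below the median of every array and was not called (log2 fold change 0.55, adjusted p = 0.103), though it was called higher without *ob/ob/Fsp27-/-* array 1. *Ccl25*, which acts in gut and thymus, and *Ccl20*, the ligand of Ccr6, differed by 0.09 and 0.07 and were not called.

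*Ccl28* and *Cxcl13* had wide errors and differed in pattern. *Ccl28*, an epithelial chemokine, read 4.92, 5.96 and 4.77 in *ob/ob* and 7.65, 4.94 and 4.81 in *ob/ob/Fsp27-/-* mice. A single *ob/ob/Fsp27-/-* array stood far above the rest, and the log2 fold change of 0.58 (SE 0.75) became −0.34 without it. *Cxcl13*, which attracts B cells through Cxcr5, read 6.06, 7.999 and 7.88 in *ob/ob* and 6.99, 9.50 and 9.99 in *ob/ob/Fsp27-/-* mice. Array 1 was the lowest in both genotypes, by more than 1.5 units, although array numbers do not pair the genotypes. The log2 fold change was 1.51 (SE 0.84, adjusted p = 0.235), and without *ob/ob/Fsp27-/-* array 1 it was 2.43 and was called (adjusted p = 0.0255). B-cell markers followed the arrays in part. *Cd79a*, a chain of the B-cell receptor complex, read 4.09, 4.61 and 4.87 in *ob/ob* and 4.89, 5.83 and 6.73 in *ob/ob/Fsp27-/-* mice, and *Ms4a1*, which encodes CD20, 4.98, 5.15 and 5.22 against 5.04, 6.18 and 7.19 (both chosen after their values were seen, as was *Cd79b*). In both, *ob/ob/Fsp27-/-* arrays 2 and 3 stood above the rest. Of 7 B-cell markers none was called higher by limma (4 had an unadjusted p under 0.05) and 1, *Cd22*, was lower (−0.56, adjusted p = 0.0303). *Cd22* was not called without *ob/ob* array 1 or 3 or without *ob/ob/Fsp27-/-* array 1 or 2. With *ob/ob/Fsp27-/-* array 1 left out, 4 of the 7 were higher. The mean of the 7 ranged from 5.45 to 5.63 over the *ob/ob* arrays and from 5.55 to 6.48 over the *ob/ob/Fsp27-/-* arrays. Their part in *Cxcl13* was not tested.

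**Figure D3:**
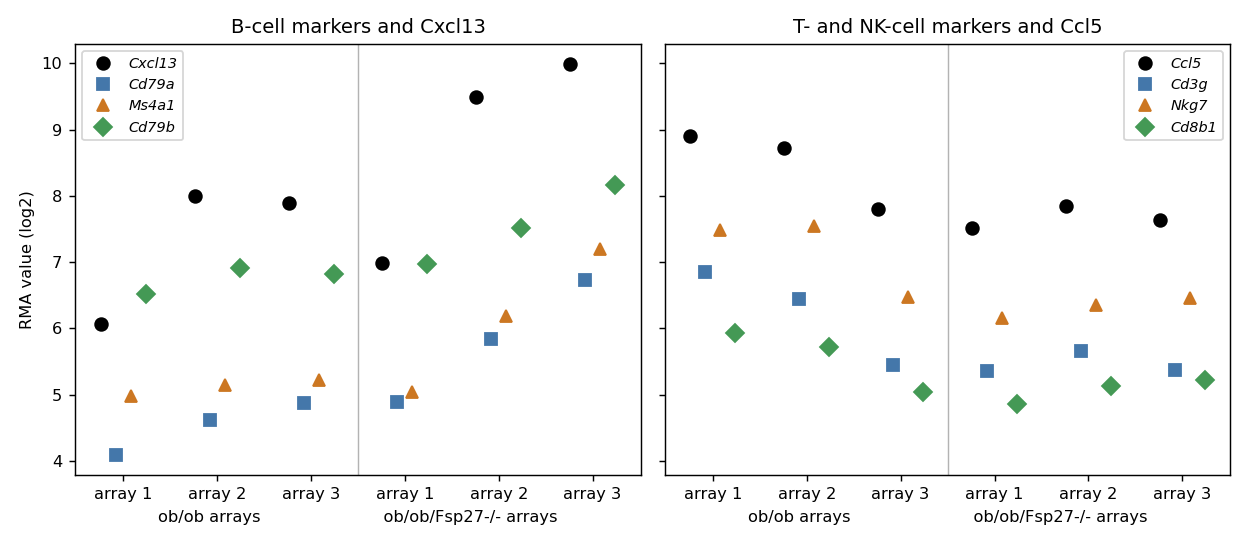
RMA values (log2, vertical axis) on the 6 arrays (horizontal axis, *ob/ob* left and *ob/ob/Fsp27-/-* right of the line) of *Cxcl13* beside 3 B-cell markers (left panel) and of *Ccl5* beside 3 T- and NK-cell markers (right panel), *Cd8b1* also chosen after its values were seen. *ob/ob/Fsp27-/-* arrays 2 and 3 are the highest for *Cxcl13*, at 9.50 and 9.99, and for the B-cell markers, and *ob/ob* arrays 1 and 2 are the highest for *Ccl5*, at 8.90 and 8.72, and for the markers beside it.

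Lower genes lay in runs on chromosome 11. In the order of the RefSeq gene table (GRCm38.p6), chromosome 11 holds 12 of the ligand genes. Of these 7 were lower, beside 10.8% of all genes. The share over all genes of chromosome 11 was not computed. *Cxcl16*, *Ccl2*, *Ccl7* and *Ccl11* came in order and were lower, then *Ccl12*, *Ccl8*, *Ccl1* and *Ccl5* were not called, then *Ccl9*, *Ccl6* and *Ccl3* were lower, and *Ccl4*, which comes next, was not. Chromosome 5 holds 13 ligand genes, of which *Pf4* and *Cxcl2* were lower and *Cxcl9* higher (10.8% of all genes were lower and 9.58% higher). *Pf4* lay between neighbours that were not called, while *Cxcl2* and *Cxcl9* came next to each other, with opposite signs. Place on the chromosome is a description, and genes of a cluster share ancestry as well as place. The order counts the ligand genes alone, without distances or the other genes between them, so a run need not be a cluster.

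**Figure D4:**
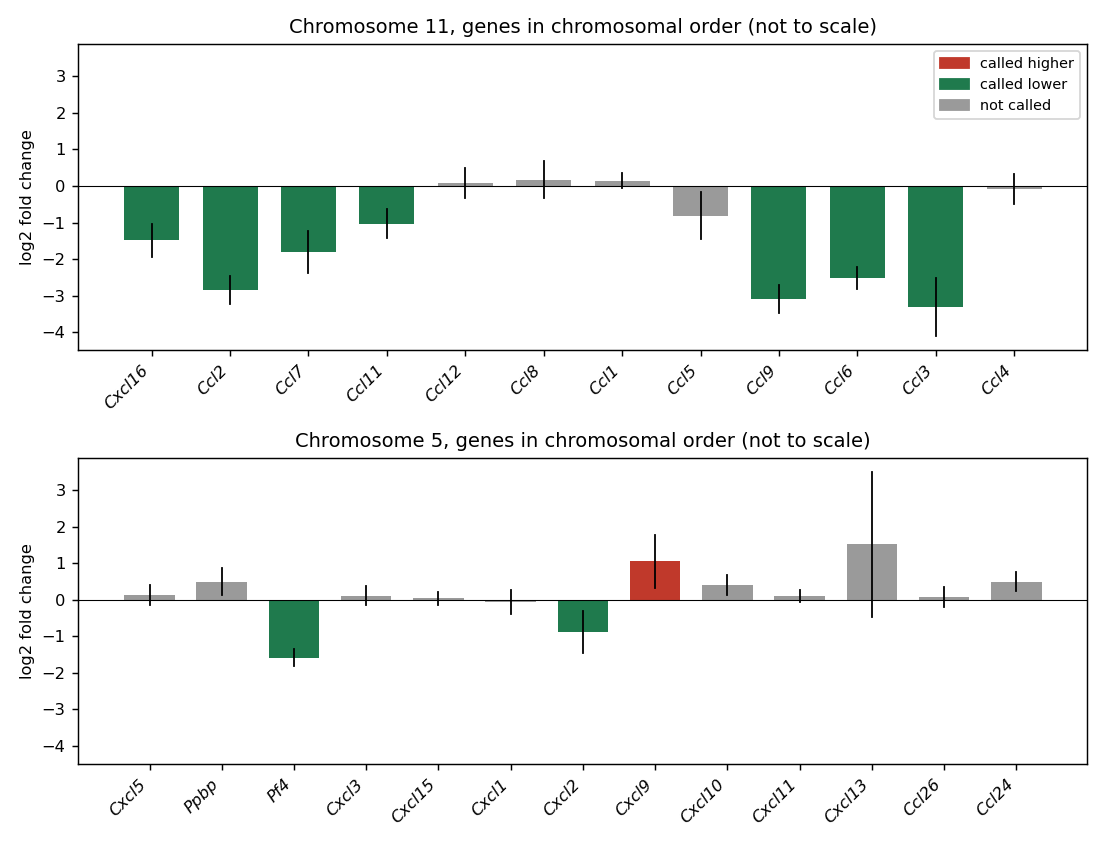
Log2 fold change (*ob/ob/Fsp27-/-* minus *ob/ob*, vertical axis) with its 95% interval (lines) of the ligand genes of chromosomes 11 and 5, in chromosomal order and with distances not to scale, coloured by call. On chromosome 11, 7 of 12 genes are lower (10.8% of all genes were), in 2 runs separated by 4 genes that were not called.

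Receptors of monocyte and eosinophil ligands were lower as well, and most other receptor genes were not called. Of 23 measured chemokine receptor genes 5 were lower and none was higher by limma (3 had an unadjusted p under 0.05 and a positive sign), with a median log2 fold change of −0.16. *Ccr1*, the receptor of Ccl3, Ccl6, Ccl7 and Ccl9, read 7.16, 7.01 and 6.59 in *ob/ob* and 4.53, 4.78 and 4.59 in *ob/ob/Fsp27-/-* mice (log2 fold change −2.29, adjusted p = 0.000124). *Ccr2*, the receptor of Ccl2 and Ccl7, read 8.14, 8.14 and 8.13 against 6.54, 5.85 and 6.43 (−1.86, adjusted p = 0.000382). *Ccr3*, the receptor of the eotaxins, read 6.95, 7.24 and 6.49 against 4.95, 5.25 and 5.003 (−1.82, adjusted p = 0.000601). On all of these the genotypes were apart by at least 1 unit. *Cxcr4*, the receptor of Cxcl12, was lower (−1.14, adjusted p = 0.000903) while its ligand was not called. *Xcr1* was lower by a small margin (−0.56, adjusted p = 0.0286) and was not called without *ob/ob* array 1, 2 or 3 or without *ob/ob/Fsp27-/-* array 1 or 3. *Cxcr6*, the receptor of Cxcl16, read 5.88, 5.52 and 4.85 against 4.81, 4.80 and 4.95 and was not called (−0.56, adjusted p = 0.127), though it was without *ob/ob* array 3. *Cxcr3*, *Cx3cr1* and *Ccr7* were not called, at −0.23, −0.12 and −0.22. *Cxcr5* and *Ccr6*, the receptors of Cxcl13 and Ccl20 on B cells, were at 0.44 and 0.42 with adjusted p = 0.0605 and 0.0784, and both were called higher without *ob/ob/Fsp27-/-* array 1. Of 16 genes of signalling below these receptors, 14 were lower, led by *Dock2* (−2.82), *Ncf1* (−2.72), *Vav1* (−2.42) and *Prkcb* (−2.41), and the other 2 were not called.

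**Figure D5:**
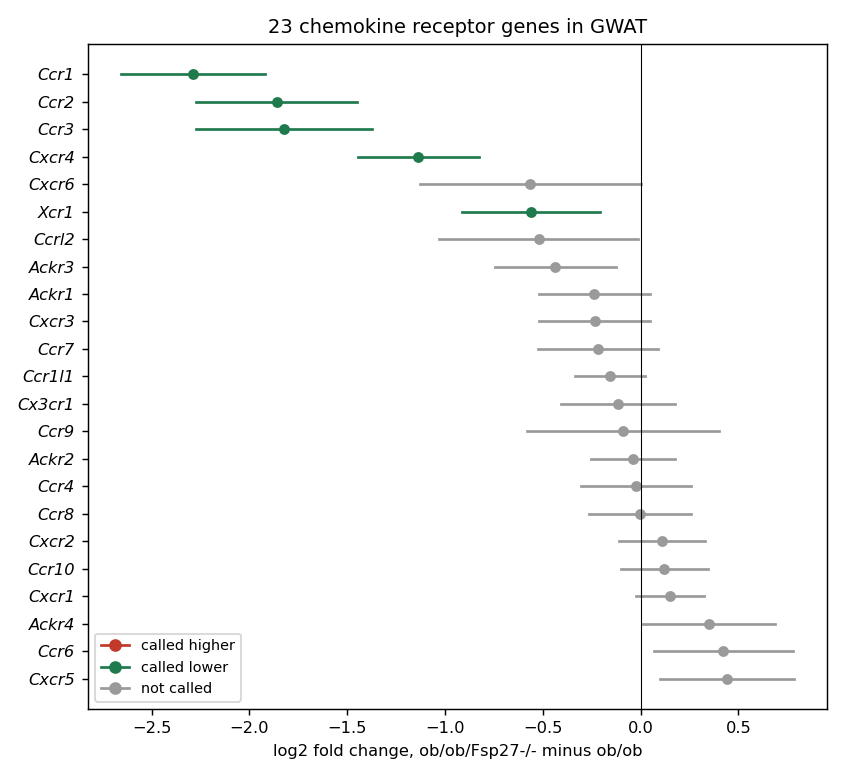
Log2 fold change (*ob/ob/Fsp27-/-* minus *ob/ob*, horizontal axis) of 23 chemokine receptor genes, each with its 95% interval from limma, green where called lower and grey where not called. *Ccr1*, *Ccr2*, *Ccr3* and *Cxcr4* stand apart at −2.29 to −1.14, and no receptor gene was called higher.

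Macrophage markers moved with the lower ligands. *Adgre1*, which encodes the surface antigen most used to mark mouse macrophages, read 11.58, 11.58 and 11.48 in *ob/ob* and 8.28, 8.37 and 8.37 in *ob/ob/Fsp27-/-* mice, and *Cd68* read 12.02, 11.95 and 11.81 against 8.95, 9.34 and 9.42. In the list of 14 macrophage markers, 12 genes were lower and 2 were not called. Their mean lay between 9.53 and 9.70 over the *ob/ob* arrays and between 7.60 and 7.79 over the *ob/ob/Fsp27-/-* arrays. Of 9 markers of lipid-associated macrophages 8 were lower, at a median of −3.61 on the log2 scale. *Adgre1* fell by 3.21 on the log2 scale, which was near the falls of *Ccl3* and *Ccl9* and more than those of *Ccl11*, *Cxcl14* and *Pf4*. The median log2 fold change of the 14 macrophage markers was smaller in size, at −1.79, beside −1.58 for *Pf4*, −1.07 for *Cxcl14* and −1.04 for *Ccl11*. Of 8 mast cell markers 4 were lower and of 10 dendritic cell markers 3, whereas 5 of 8 endothelial and 7 of 11 adipocyte markers were higher. The adipocyte count was 4 without *ob/ob* array 2 or without *ob/ob/Fsp27-/-* array 2 or 3, and the endothelial count was 3 without *ob/ob/Fsp27-/-* array 2. Of 6 mesothelial markers none was called by limma, and none had an unadjusted p under 0.05, although 1 was higher without *ob/ob* array 2. Of 16 inflammatory cytokine genes 3 were lower, *Tgfb1* (−1.53), *Il18* (−0.96) and *Csf1* (−0.59), the last of which was not called without *ob/ob* array 3. The part of macrophage number in the lower ligand values was not tested.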

How the data were processed

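Total RNA of GWAT was hybridized to 6 GeneChip Mouse Gene 1.0 ST arrays, 3 per genotype, and groups were taken from the sample labels. The authors deposited RMA values in log2 units after background adjustment and quantile normalization. Which versions of RMA and limma they ran is not given in the sources used here. Of 34760 probesets, the 22961 with at least 1 gene symbol entered the test, and a gene had to have a probeset with its symbol alone. Symbols were brought up to date by Entrez number for 21553 probesets. The test was that of limma 3.58.1 under R 4.3.3 (lmFit, then eBayes, without covariates), with Benjamini-Hochberg adjustment over all tested probesets. Arrays have no read depth, so precision is limited by 3 arrays per genotype, and p-values measure the spread between arrays. The procedure was tested on simulated data.

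The members, the lists of receptors, markers and pathway genes and the 4 motifs were chosen with earlier results of these data known. Any ligand or receptor gene could be named, as could *Cidec*, the markers *Adgre1*, *Cd68*, *Itga2b*, *Cd3e* and *Ifng*, and up to 4 called genes per other list. Other genes are marked as chosen after their values were seen, except the adipocyte markers that check the tissue. Start windows and gene order came from RefSeq tables, read with python 3.11.15 and pandas 2.3.3. Figures were drawn with matplotlib 3.10.9. Results were recomputed with low values filtered at the 30th percentile or the median, over all probesets, with other centring, cyclic loess, variance models and fold thresholds, with probesets averaged per gene, and without each array.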

Additional observations from a re-analysis of the deposited data

How the results depend on the processing

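Of the 36 ligand genes, 29 kept their call under every alternative that could be run on them, 14 to 16 per gene since filters drop dim genes, and 9 of the 29 were called genes. The number of lower ligand genes stayed between 9 and 11. With all probesets, a log2 fold threshold of 1 or any 1 *ob/ob/Fsp27-/-* array left out it was 9, and with array weights or *ob/ob* array 3 left out it was 11. The number of higher ligand genes, 1 as reported, depended on the setting. It was 0 over all probesets, 2 with arrays centred on their medians, 4 when centred on housekeeping genes, 2 with array weights (*Ccl24* and *Ppbp*, and not *Cxcl9*), 4 with no fold threshold, and from 0 to 3 when single arrays were left out (3 when *ob/ob/Fsp27-/-* array 1 was the missing one, 2 for *ob/ob* array 3 and 0 for array 2 or 3 of the double mutant). The median log2 fold change of the ligand genes was −0.032 over the 29 left by the filter at the 30th percentile, −0.42 over the 20 left by the filter at the median, where dim genes are absent by construction, and 0.21 with housekeeping centring. That centring moved the median of all genes from 0.06 to 0.20 and the share of higher genes among those called from 47.0% to 62.9%. Lower receptor genes numbered 2 of the 9 left by the filter at the median, which drops dim genes. Higher receptor genes numbered 2 with housekeeping centring and 0 to 2 when single arrays were left out. Under housekeeping centring *Cxcl10*, *Ccl24* and *Ppbp* joined *Cxcl9*, 10 ligand genes were lower, and of the genes named above as lower *Xcr1*, *Itgb3*, *Cd22*, *Csf1*, *Irf9* and *Stat2* were no longer called. Signs changed 21 times, each time for a gene that was not called. Leaving out an array leaves 2 against 3. No paired analysis was possible because the array numbers only name the arrays.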
